A study of Raphanus sativus with 8 samples.

Results

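The genes described here are the radish (Raphanus sativus) counterparts of TOE1, TOE2, TOE3, SMZ, SNZ and AP2, the AP2-like floral repressors of Arabidopsis. Members were all unigenes, that is, entries of the radish transcript set on which reads were counted, whose Arabidopsis match in the deposited annotation was 1 of these 6 loci. This gave 21 of 78395 unigenes, on 5 of the 17197 Arabidopsis loci matched. TOE1 (AT2G28550) had 6 unigenes, TOE2 (AT5G60120) 5, TOE3 (AT5G67180) 1, SMZ (AT3G54990) 3 and AP2 (AT4G36920) 6. SNZ (AT2G39250) was the match of 0 unigenes and was not analysed here. All 21 unigenes passed the filter on low counts, which kept 65934 unigenes for testing.

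RNA-seq was run on poly(A) RNA from whole shoots of 2 radish inbred lines, the late-bolting NH-JS1 and the early-bolting NH-JS2, with and without gibberellin (GA). Seedlings of all groups were vernalized for 10 days and acclimatized for 2 weeks. The groups NH-JS1_GA and NH-JS2_GA were then sprayed with 10 mM GA, while NH-JS1 and NH-JS2 received none, and shoots were collected 6 days later. Each of the 4 groups had 2 libraries, each made from the pooled shoots of 3 plants of 1 inbred line. The labels place both untreated groups at vegetative growth and both GA groups at bolting. The paper reports, however, that most NH-JS1 plants given this vernalization and GA did not bolt, even well after this sampling day. It does not state whether the sampled shoots had bolted.

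In Arabidopsis, TOE1, TOE2, TOE3, SMZ, SNZ and AP2 encode transcription factors with AP2 DNA-binding domains. They hold back flowering by repressing FT, SOC1 and floral identity genes, together with co-repressors of the TOPLESS family. Their messenger RNAs are targets of the microRNA miR172, whose level rises as the plant ages under the control of SPL factors. AP2 itself also specifies sepals and petals in the flower.

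Library totals ranged from 23757588 to 34165272 counts, and every deposited count was at least 1. Levels are given as scaled counts, which are counts set to a common library size, for replicate 1 and then replicate 2 of a group. They are not divided by transcript length, so levels of different genes cannot be ranked. The libraries of NH-JS1 lay between -163.4 and -159.9 on the first principal component and those of NH-JS2 between 155 and 168.7. NH-JS2 replicate 2 stood apart on the second component at 74.4, against -41.9 for NH-JS2 replicate 1. Values of the members between the lines are also given without that library, as are counts of calls for the members and, averaged over GA, for the target and SPL lists. For the other lists, calls rest on all 8 libraries. Of the leaf and shoot markers, 12 unigenes of 4 of 5 genes were present and held 1.64% to 3.14% of the counts of a library. In these bulk samples, fewer cells of a type and less RNA per cell cannot be told apart.

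All 21 unigenes carried the AP2 domain (PF00847), as did 253 unigenes in the whole table. The KEGG orthology group of AP2-like factors, K09284, was assigned to 15 unigenes of the table, and all 15 were members: 5 of TOE1, 3 of TOE2, 1 of TOE3 and 6 of AP2. The best protein match of 19 members came from Brassica rapa. The 6 TOE1 unigenes fell on 3 B. rapa proteins. TBIU029792, TBIU037050 and TBIU052092 matched Brara.G01386.1.p, TBIU029793 and TBIU052091 matched Bra011939, and TBIU064891 matched Brara.C02403.1.p. The 21 unigenes formed 10 runs of consecutive unigene numbers.

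Unigenes of 1 locus did not give independent measurements. TBIU003003 and TBIU003005 of TOE2 differed by 1 to 17 counts in each library, at 299 to 513 counts. Their squared differences divided by their sums added up to 0.691 over the 8 libraries, where independent Poisson counts of equal mean would give about 8. For TBIU044081 and TBIU044084 of AP2 the sum was 1.8. Copies this alike may hold the same reads. They were still tested and counted singly. Comparisons are also given for locus totals, the summed counts of all unigenes of a locus. A locus total may hold a read more than once.

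The locus totals differed in kind between the 5 genes. For TOE1 they were 4931 and 4717 in NH-JS1 (4157 and 3966 with GA), against 2473 and 2979 in NH-JS2 (2274 and 1859 with GA). All 4 NH-JS2 libraries lay below all 4 NH-JS1 libraries. For TOE3 the totals were 154 and 166 in NH-JS1 (107 and 95.01 with GA), against 60.8 and 59.3 in NH-JS2 (62.9 and 54.4 with GA). Its NH-JS2 libraries also lay below every NH-JS1 library. The TOE2 totals ranged from 1430.24 to 1761 in the NH-JS1 libraries and from 1391 to 1679 in the NH-JS2 libraries, and those of AP2 from 2125 to 2314 and from 1625 to 2285. SMZ totals ranged from 29.3 to 50.5 and from 30.4 to 52.6. For TOE2, AP2 and SMZ the lines overlapped.

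**Figure D1:**
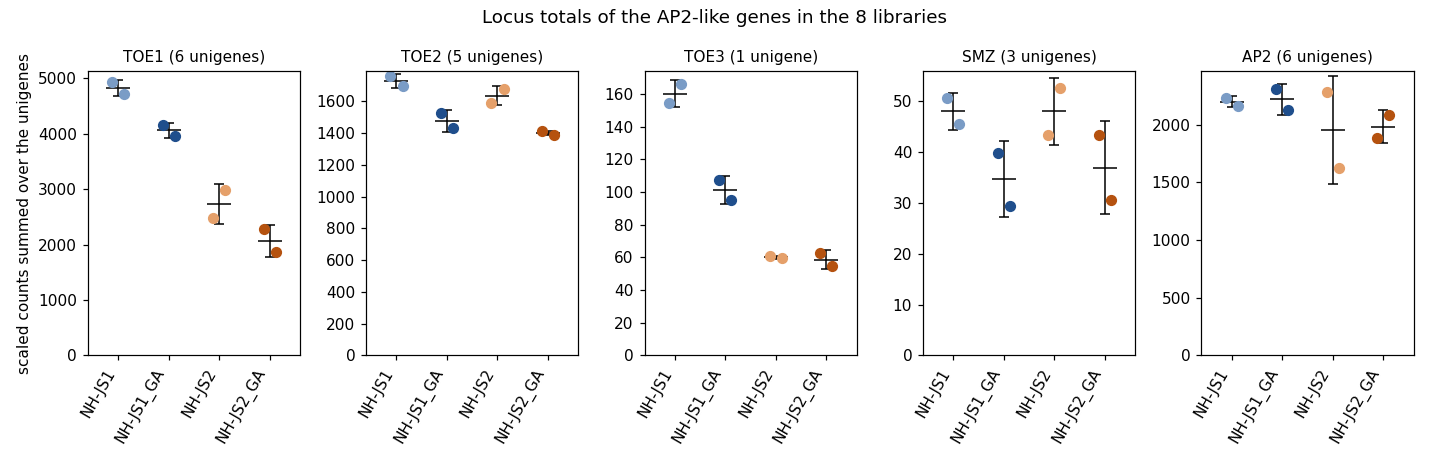
Scaled counts summed over the unigenes of each locus (y axis, from 0) in the 4 groups. Each point is 1 library, the long bar is the mean of the 2 libraries and the short bars show 1 SD. TOE1 and TOE3 are lower in every NH-JS2 library than in every NH-JS1 library, while the lines overlap for TOE2, SMZ and AP2.

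The first question was whether the repressors differed between the late-bolting and the early-bolting line. TOE1 and TOE3 were lower in NH-JS2, with and without GA. Without GA, all 6 TOE1 unigenes and the TOE3 unigene passed an adjusted p of 0.05 in edgeR's quasi-likelihood test, each lower in NH-JS2. These were 7 of 21 members, where 14.8% of all unigenes tested were called lower in NH-JS2. With GA, 7 of 21 were again called lower, against 14.3% of all unigenes, and averaged over GA 7 of 21, against 20.7%. All 7 unigenes were called both without and with GA. These 2 comparisons use the means of different libraries but share an estimate of spread fitted over all libraries. The 2 sets of calls are therefore not fully independent. DESeq2 called 7 members lower without GA, 6 with GA and 7 averaged, against 10.5%, 10.1% and 15.7% of all unigenes. No comparison of the lines called a member higher in NH-JS2 by edgeR or DESeq2, and at an unadjusted p under 0.05 edgeR also gave 0, where edgeR called 15.4%, 14.4% and 21.5% of all unigenes higher. In all 7 unigenes the NH-JS2 libraries lay below every NH-JS1 library, which held for 19.6% of all unigenes tested. Counted by locus, these were 2 of 5 loci, which were also the loci without overlap of the lines (20.6% of all loci tested), where 16.3% of all loci were called lower without GA, 15.1% with GA and 21.8% averaged over GA. The median log2 fold change of the 21 unigenes, averaged over GA, was -0.11, against 0.00 over all unigenes tested.

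TOE1, also named RAP2.7, represses flowering in Arabidopsis seedlings and leaves and is a target of miR172. Its most abundant unigene, TBIU052092, had 2829 and 2671 scaled counts in NH-JS1 (2246 and 2168 with GA), against 1411 and 1750.45 in NH-JS2 (1252 and 1013 with GA). The highest NH-JS2 library was thus below the lowest NH-JS1 library. In edgeR's test the log2 fold change of NH-JS2 against NH-JS1 was -0.80 (SE 0.14, adjusted p = 0.00278) without GA and -0.96 (SE 0.14, adjusted p = 0.00101) with GA. NH-JS2 shoots held 57.4% and 51.3% of the NH-JS1 level.

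TBIU052091, next to it in number, had 967 and 916 scaled counts in NH-JS1 (831 and 751 with GA), against 529 and 628 in NH-JS2 (426 and 339 with GA). The line difference was -0.71 (SE 0.14, adjusted p = 0.00432 in edgeR) without GA and -1.05 (SE 0.14, adjusted p = 0.000495) with GA on the log2 scale. These 2 unigenes held most of the TOE1 total and moved together.

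TBIU037050 showed the widest gap among the TOE1 unigenes. It had 347 and 326 scaled counts in NH-JS1 (293 and 310.4 with GA), against 154 and 196 in NH-JS2 (143 and 139 with GA). Averaged over GA, the NH-JS2 level was 49.1% of that in NH-JS1, with a log2 fold change of -1.03 (SE 0.10, adjusted p = 3.25e-05 in edgeR). TBIU064891, the unigene on the third B. rapa protein, had 347 and 371 in NH-JS1 (328 and 303 with GA), against 181 and 206 in NH-JS2 (191 and 185 with GA). Its averaged difference was -0.82 (SE 0.08, adjusted p = 4.97e-05 in edgeR). The 4 NH-JS2 libraries of both unigenes lay below those of NH-JS1.

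The remaining pair of TOE1 unigenes had lower counts and a wider spread. TBIU029792 had 232 and 215 scaled counts in NH-JS1 (217 and 213 with GA), against 110.02 and 148 in NH-JS2 (145 and 101 with GA). TBIU029793 had 201 and 189 in NH-JS1 (195 and 183 with GA), against 107 and 126 in NH-JS2 (123 and 85.9 with GA). The groups of the lines did not overlap. Averaged over GA, both differed by -0.81 on the log2 scale (SE 0.14 and 0.13), with adjusted p = 0.00139 and 0.00087 in edgeR. These calls depended on single libraries within a treatment. Without GA, TBIU029792 lost its call without NH-JS1 replicate 1 (-0.75, adjusted p = 0.0776) and without NH-JS2 replicate 1 (-0.60, adjusted p = 0.0739), and so did TBIU029793 (-0.71, adjusted p = 0.0729, and -0.63, adjusted p = 0.0639). With GA, TBIU029792 lost it without NH-JS1_GA replicate 1 (-0.79, adjusted p = 0.0587), NH-JS1_GA replicate 2 (-0.82, adjusted p = 0.0502) or NH-JS2_GA replicate 2 (-0.57, adjusted p = 0.0934).

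**Figure D2:**
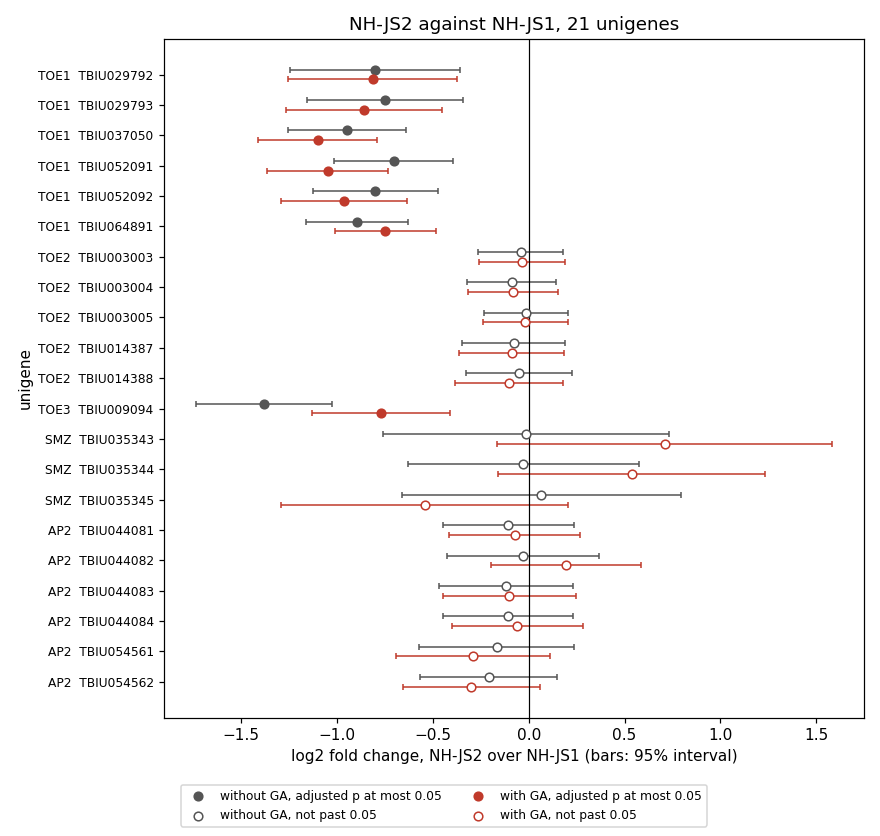
Log2 fold change of NH-JS2 against NH-JS1 (x axis) for the 21 unigenes (y axis), without GA in grey and with GA in red, from edgeR. Bars are 95% intervals and filled points have an adjusted p of at most 0.05. The 6 TOE1 unigenes and the TOE3 unigene lie left of 0 in both treatments and are filled, while the TOE2, SMZ and AP2 unigenes lie around 0 with open points.

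The line difference ran through all copies of TOE1. TBIU052092 held 54.4% to 57.5% of the TOE1 total in each of the 8 libraries, TBIU052091 18.2% to 21.3%, TBIU037050 6.17% to 7.90%, TBIU064891 6.75% to 9.92%, TBIU029792 4.42% to 6.35% and TBIU029793 4.03% to 5.40%. For the TOE1 total the log2 fold change was -0.82 (SE 0.13, adjusted p = 0.00192 in edgeR over all loci) without GA, -0.97 (SE 0.13, adjusted p = 0.000769) with GA and -0.90 (SE 0.10, adjusted p = 9.86e-05) averaged over GA. The level in NH-JS2 was 56.5%, 50.9% and 53.6% of that in NH-JS1. Without NH-JS2 replicate 2, which stood apart, the averaged value was -0.97 (adjusted p = 0.00012), the value without GA -0.96 (adjusted p = 0.00227), and the same number of members, 7, was called lower in each comparison. Averaged over GA, the 6 TOE1 unigenes then lay between -1.12 and -0.87. Over the 13 alternative fits it ranged from -0.98 to -0.83 and passed in all 13.

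TOE3 acts alongside TOE1 in Arabidopsis and also takes part in flower development. Its single unigene, TBIU009094, had 154 and 165 scaled counts in NH-JS1 (106 and 94.1 with GA), against 61.2 and 60.8 in NH-JS2 (63.1 and 54.5 with GA). It was highest in untreated NH-JS1 and lowest, at nearly the same level, in both NH-JS2 groups. The line difference was -1.38 (SE 0.16, adjusted p = 0.000179 in edgeR) without GA and -0.77 (SE 0.16, adjusted p = 0.00601) with GA on the log2 scale. NH-JS2 therefore held 38.4% and 58.7% of the NH-JS1 level. Averaged over GA the value was -1.08 (SE 0.11, adjusted p = 5.95e-05), and without NH-JS2 replicate 2 also -1.08 (adjusted p = 0.000226). The call with GA was lost under DESeq2 (-0.77, adjusted p = 0.0586) and without NH-JS2_GA replicate 2 (-0.66, adjusted p = 0.0539).

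TOE2 acts redundantly with TOE1 in Arabidopsis. Its most abundant unigene, TBIU003003, had 431 and 407 scaled counts in NH-JS1 (361 and 347 with GA), against 398 and 418 in NH-JS2 (340.1 and 351 with GA). The lines overlapped in each treatment. None of the 5 TOE2 unigenes was called between the lines by edgeR in any of these comparisons, and none had an unadjusted p under 0.05. For the TOE2 total, averaged over GA, the log2 fold change was -0.08 with a 95% interval from -0.22 to 0.07 (adjusted p = 0.357 in edgeR), and without NH-JS2 replicate 2 it was -0.10 (adjusted p = 0.271).

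AP2, which acts both in flowering time and in sepal and petal identity, was not called between the lines either. TBIU044081 had 525 and 500.1 scaled counts in NH-JS1 (515 and 491 with GA), against 552 and 395 in NH-JS2 (456 and 499.8 with GA). The replicates of untreated NH-JS2 differed more than the lines did. The AP2 total differed by -0.16 averaged over GA, with a 95% interval from -0.42 to 0.09 (adjusted p = 0.264 in edgeR). The value turned on the untreated NH-JS2 pair. Without NH-JS2 replicate 2, the library that stood apart, the AP2 total differed by 0.06 (adjusted p = 0.762) without GA and -0.06 (adjusted p = 0.586) averaged over GA. Without NH-JS2 replicate 1, which leaves the library that stood apart as the only untreated one of this line, the total was called lower, at -0.43 (adjusted p = 0.0309) without GA and -0.30 (adjusted p = 0.0149) averaged over GA. Of its unigenes, TBIU054562 was then called without GA (-0.48, adjusted p = 0.0332), and TBIU054562 (-0.39, adjusted p = 0.00772), TBIU054561 (-0.39, adjusted p = 0.0153) and TBIU044081 (-0.22, adjusted p = 0.0469) were called averaged over GA. TBIU044082 did not follow the other AP2 unigenes. It held 64.1 to 86.8 scaled counts and correlated with TBIU044081 at r = -0.28 over the 8 libraries, where TBIU044084 correlated with it at 0.999.

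SMZ, a repressor of FT in Arabidopsis leaves, was measured at 5 to 23 counts per unigene and library. Its most abundant unigene, TBIU035345, had 17.7 and 16.6 scaled counts in NH-JS1 (21.2 and 16.02 with GA), against 14.5 and 22.1 in NH-JS2 (15.5 and 10.2 with GA). The replicates spread as widely as the groups. The SMZ total differed between the lines by 0.04 on the log2 scale, with a 95% interval from -0.39 to 0.47 (adjusted p = 0.884 in edgeR), and by -0.03 (adjusted p = 0.908) without NH-JS2 replicate 2. A difference of the size seen for TOE3 lay outside this interval.

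Because TOE1 and TOE3 moved with the line and TOE2, SMZ and AP2 were not called, the loci were also compared within each library. The log2 ratio of 2 locus totals does not depend on library scaling, and it is given as a description with no test, because the loci were set against each other after their line differences had been seen. The TOE1/TOE2 ratio was 1.45 to 1.49 in the 4 NH-JS1 libraries and 0.42 to 0.83 in the 4 NH-JS2 libraries. The mean of NH-JS2 minus that of NH-JS1 was -0.83. Within treatments the difference was -0.75 without GA and -0.91 with GA, and without NH-JS2 replicate 2 it was -0.89. It was -0.95 for TOE1/SMZ, -1.02 for TOE3/TOE2, -0.92 for TOE3/AP2 and -1.14 for TOE3/SMZ, and in each of these the lines did not overlap. For TOE1/AP2 the difference was -0.73 and the lines overlapped, with untreated NH-JS2 replicate 2 at 0.87. Without that library the difference was -0.93. The TOE1/TOE3 ratio differed by 0.19, with 0.58 without GA and -0.19 with GA.

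**Figure D3:**
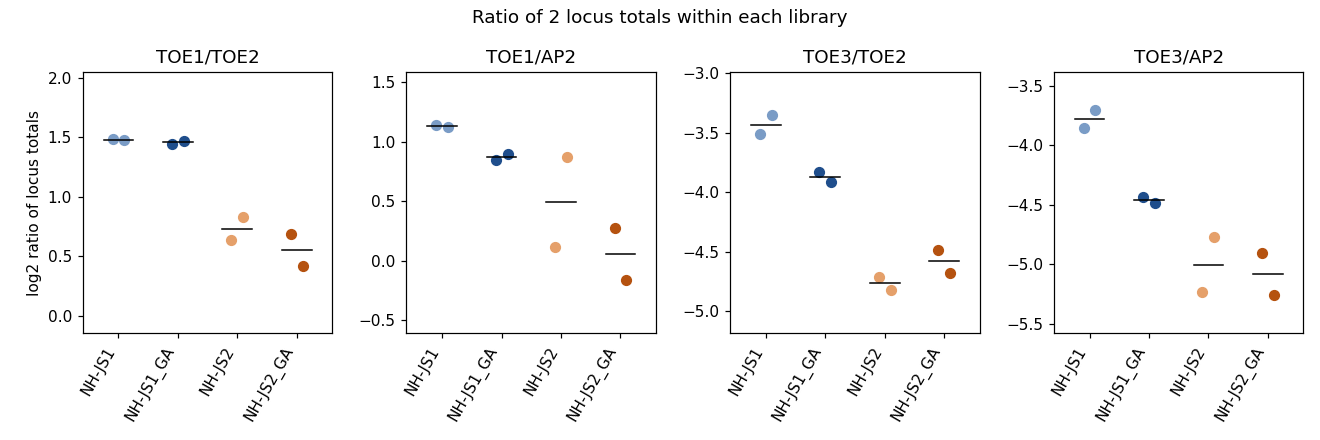
Log2 ratio of 2 locus totals within each library (y axes, scaled to the data) in the 4 groups for TOE1/TOE2, TOE1/AP2, TOE3/TOE2 and TOE3/AP2. Points are libraries and bars are means of 2. The NH-JS2 libraries lie below all NH-JS1 libraries in each panel except TOE1/AP2, where NH-JS2 replicate 2 at 0.87 overlaps them.

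Of the floral organ markers, 2 of 5 genes had unigenes, and only SEP3, which is also a target of the repressors, was higher in NH-JS2. Its 4 unigenes summed to 15 to 17 counts in NH-JS1, 14 to 21 in NH-JS1_GA, 165 to 246 in NH-JS2 and 301 to 353 in NH-JS2_GA. The 3 unigenes of AG, the gene of stamen and carpel identity, summed to 11 to 18, 16 to 21, 9 to 12 and 11 to 17 in the same order and did not pass the filter on low counts. Leaf and shoot markers held 1.95% to 2.18%, 1.64% to 2.07%, 2.33% to 3.14% and 2.08% to 2.18% of the counts in the same order. The markers chosen for the shoot meristem and the root had 0 unigenes and were not analysed here. The part of tissue composition in the line difference of TOE1 and TOE3 was not tested.

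With the thresholds the study used for differentially expressed genes, which were taken as an absolute log2 change from 0.6 up, adjusted p up to 0.01 and a mean from 500 scaled counts up in any group compared, 2 of the 21 unigenes remained in each comparison of the lines. Both were TOE1, TBIU052091 and TBIU052092. Of all unigenes tested, 1.39% met these thresholds in the lower direction without GA, 1.27% with GA and 1.55% averaged over GA.

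The second question was whether GA changed the repressors. None of the 21 unigenes and none of the 5 locus totals was called for GA by edgeR in NH-JS1, in NH-JS2 or averaged over the lines, and DESeq2 called 0 locus totals. Calls were rare in the whole table: edgeR called 0.0819% of all unigenes in NH-JS1, 0.0637% in NH-JS2 and 0.152% averaged over the lines, and 0.089%, 0.0668% and 0.152% of all loci. At an unadjusted p under 0.05, edgeR gave 6 lower and 0 higher in NH-JS1, 4 lower and 0 higher in NH-JS2, and 11 lower and 0 higher averaged over the lines. The share of all unigenes lower at that threshold was 4.75%, 5.03% and 7.2%. Unigenes of 1 locus may share reads, so these counts are not of separate genes. Averaged over the lines, the totals of TOE1, TOE2 and TOE3 had an unadjusted p of 0.00885, 0.00761 and 0.0202 in edgeR. Those of SMZ (0.0508) and AP2 (0.883) did not pass 0.05. The share of all loci at that threshold is not given here. DESeq2 called 1 of 21, TBIU052092 of TOE1, lower averaged over the lines (-0.40, adjusted p = 0.0447), where it called 0.514% of all unigenes lower. The median log2 fold change of the 21 unigenes was -0.23 averaged over the lines, against 0.00 for all unigenes tested. The 12 leaf and shoot marker unigenes had a median of -0.27, with -0.16 in NH-JS1 and -0.44 in NH-JS2, and 4 of 12 were lower at an unadjusted p under 0.05 averaged over the lines. The part of this shift in the values of the members was not tested.

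In 9 of the 21 unigenes both GA libraries lay below both untreated libraries in each line, which held for 6.93% of all unigenes tested. These were 3 of TOE1, all 5 of TOE2 and 1 of SMZ. Of the locus totals, TOE1 and TOE2 showed it, against 6.59% of all loci. For the TOE1 total the log2 fold change with GA was -0.25 (SE 0.13, adjusted p = 0.701 in edgeR) in NH-JS1 and -0.40 (SE 0.13, adjusted p = 0.518) in NH-JS2, and -0.32 (95% interval -0.54 to -0.11, adjusted p = 0.276) averaged. Within TOE1, TBIU052091 had the lowest value in NH-JS2, -0.60 (SE 0.14, adjusted p = 0.354), and TBIU029792 values near 0, -0.05 in NH-JS1 and -0.07 in NH-JS2.

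TOE2 had nearly the same GA values in both lines. Its total went from 1761 and 1697 scaled counts in NH-JS1 to 1526 and 1430.24 in NH-JS1_GA, and from 1593 and 1679 in NH-JS2 to 1411 and 1391 in NH-JS2_GA. The GA libraries were lower in both lines, at 85.5% and 85.7% of the untreated level. The log2 fold changes were -0.23 (SE 0.09, adjusted p = 0.59 in edgeR) and -0.22 (SE 0.09, adjusted p = 0.542), and their difference was 0.00, with a 95% interval from -0.29 to 0.30. Averaged over the lines the TOE2 value was -0.22 (95% interval -0.37 to -0.08, adjusted p = 0.265).

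TOE3 had different GA values in the lines. In NH-JS1 both GA libraries (106 and 94.1 scaled counts) lay below both untreated libraries (154 and 165), with a log2 fold change of -0.67 (SE 0.14, adjusted p = 0.285 in edgeR). In NH-JS2, where the level was already low, the groups overlapped and the value was -0.06 (SE 0.17, adjusted p = 0.97). The difference of the GA effects was 0.61 (SE 0.22). It had an unadjusted p of 0.0232 in edgeR and an adjusted p of 0.9999, where 0.0592% of all unigenes were called in this comparison, and was the 1 member of 21 with an unadjusted p under 0.05 in the higher direction, where 2.16% of all unigenes had one.

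For AP2 the GA values were small in both lines. The AP2 total differed by 0.01 (95% interval -0.35 to 0.37) in NH-JS1 and by 0.02 (95% interval -0.34 to 0.38) in NH-JS2, with adjusted p = 0.992 and 0.982 in edgeR. None of the 6 AP2 unigenes had both GA libraries below both untreated libraries in each line. The SMZ total differed by -0.47 (95% interval -1.07 to 0.13) in NH-JS1 and -0.38 (95% interval -0.98 to 0.23) in NH-JS2. Both intervals include 0. TBIU035345 held 33.3% to 41.0% of the SMZ total in 6 libraries and 53.8% and 55.2% in the 2 libraries of NH-JS1_GA.

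**Figure D4:**
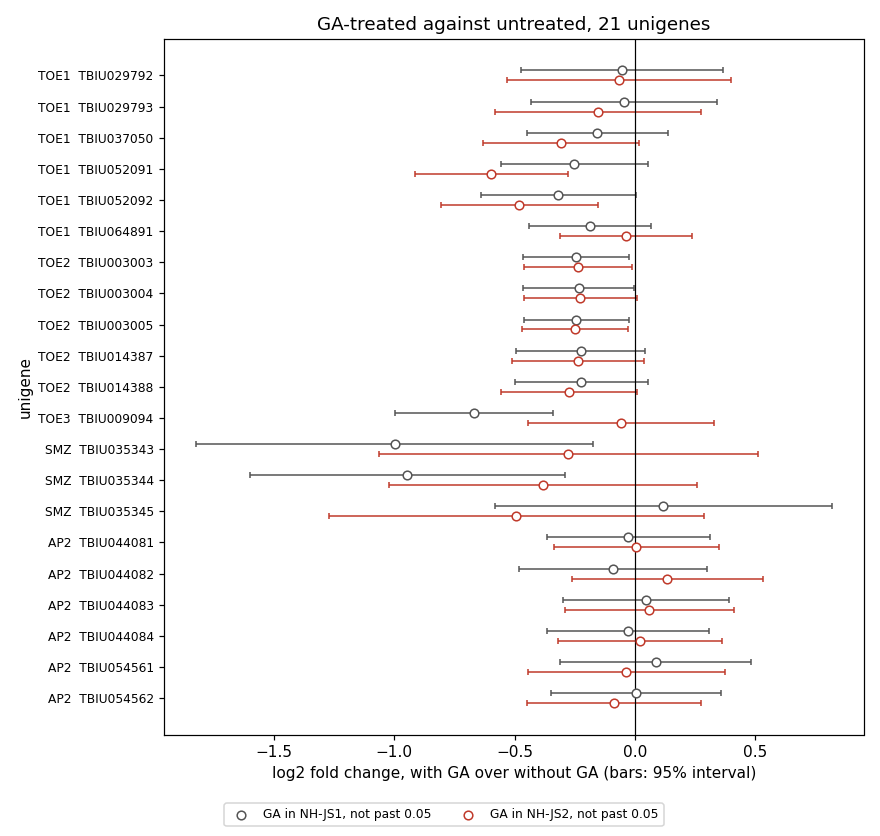
Log2 fold change with GA against without GA (x axis) for the 21 unigenes (y axis), in NH-JS1 in grey and in NH-JS2 in red, from edgeR, with 95% intervals. All points are open because 0 of 21 passed an adjusted p of 0.05. The TOE2 unigenes lie between -0.27 and -0.22 in both lines, and the AP2 unigenes around 0.

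The genes around the repressors were followed by lists of Arabidopsis loci, between the lines averaged over GA, where 21.5% of all unigenes tested were called higher in NH-JS2 and 20.7% lower. The shares were 15.4% higher and 14.8% lower without GA, and 14.4% higher and 14.3% lower with GA. Counts within a treatment are to be read against these. Unigenes of 1 locus may share reads, which was examined for the members only. The flowering genes listed as targets of the repressors were mostly higher in NH-JS2: 15 of 24 unigenes were called higher and 4 lower, with 9 higher and 0 lower without GA and 13 higher and 2 lower with GA. SEP3, a floral identity gene, rose by 4.12, 4.12 and 4.79 on the log2 scale in its 3 unigenes tested, from 2.01 to 7.04 mean scaled counts in the NH-JS1 groups to 58.6 to 119.9 in the NH-JS2 groups. SOC1, which integrates flowering signals, had means of 278, 312, 1946 and 2721 in NH-JS1, NH-JS1_GA, NH-JS2 and NH-JS2_GA for TBIU065173 (2.97, SE 0.19, adjusted p = 2.52e-06 in edgeR). The unigene of FT, TBIU006696, the mobile flowering signal, was chosen after its values were seen. It had means of 2.22, 1.51, 18.7 and 91.5 in the same order and was called higher in NH-JS2 (4.42, adjusted p = 3.57e-05 in edgeR). The FT means in the NH-JS1 groups lie near 1, the lowest deposited count. So do those of the SEP3 unigene TBIU075948, at 2.64 and 2.01. The sizes of these 2 changes are therefore uncertain. The 4 unigenes called lower were all of FD, the partner of FT at the shoot tip, also named after their values were seen. Without NH-JS2 replicate 2, 14 target unigenes were called higher and 1 lower.

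Among proteins that work with the repressors, co-repressors were called lower in 12 of 28 unigenes and higher in 0, with 10 lower and 1 higher without GA and 8 lower and 0 higher with GA. TPR2, a TOPLESS-related co-repressor, had the lowest adjusted p, with TBIU071181 at means of 492 and 464 in the NH-JS1 groups and 180 and 183 in the NH-JS2 groups (-1.40, SE 0.09, adjusted p = 2.6e-06 in edgeR). More abundant TPR2 unigenes, named after their values were seen, were not called. TBIU041333 had means of 2327 and 2282 in the NH-JS1 groups and 2160 and 2392 in the NH-JS2 groups (-0.02, adjusted p = 0.862 in edgeR). TBIU041334 (-0.02) and TBIU060516 (-0.05) were not called either. Within TPR2, the line difference was thus confined to some copies. Other co-repressors called lower by edgeR are also named after their values were seen. They were TPL in TBIU011773 (-0.47, adjusted p = 0.000508) and TBIU049513 (-0.38, adjusted p = 0.00212) and TPR1 in TBIU000575 (-0.34, adjusted p = 0.00764). TPR3 was called in TBIU058435 (-0.42, adjusted p = 0.0437) but not in its other unigenes. No unigene of TPR4 or HDA19 was called averaged over GA. Partners of TOE1, which include the light-signalling factor CO and the JAZ repressors of jasmonate signalling, were listed together with the jasmonate receptor COI1, which had 8 unigenes. In this list 8 of 26 unigenes were called higher and 0 lower averaged over GA, COI1 unigenes among them. Within treatments 6 were called higher without GA and 2 with GA, where 15.4% and 14.4% of all unigenes were. CO, in TBIU047519, rose by 1.32 averaged over GA (SE 0.30, adjusted p = 0.00735 in edgeR), but was not called with GA (1.05, adjusted p = 0.085), and the jasmonate receptor COI1 by 0.44 (SE 0.07, adjusted p = 0.000708) in TBIU037773.

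The list of SPL factors held SPL3, SPL4 and SPL5 beside SPL2, SPL9, SPL10, SPL11 and SPL15. Its unigenes were called lower in NH-JS2 mainly without GA. Without GA 16 of 38 unigenes were called lower and 0 higher, with GA 2 lower and 0 higher, where 14.8% and 14.3% of all unigenes were called lower, and averaged over GA 19 lower and 1 higher. Without NH-JS2 replicate 2 the averaged counts were 18 lower and 5 higher. None of the 38 was called for the difference between these line effects, which is the difference of the GA effects, and 8 had an unadjusted p under 0.05 in edgeR, all higher. SPL9, an activator of miR172 genes, fell by 0.91 in TBIU028430 averaged over GA (SE 0.15, adjusted p = 0.00105 in edgeR), with -1.18 without GA and -0.64 with GA. In TBIU028431 of SPL9 the values were -1.01 without GA (adjusted p = 0.00134) and -0.35 with GA (adjusted p = 0.126). Averaged over GA, SPL11 fell by 0.65 and SPL2 by 0.63. Of the miRNA machinery, 4 of 33 were called higher and 5 lower averaged over GA, with 2 and 5 without GA and 2 and 2 with GA. HYL1, which helps to process microRNA precursors, fell by 1.01 in TBIU030629 (SE 0.11, adjusted p = 9.26e-05), while AGO1, which carries mature microRNAs, rose by 0.47 in TBIU003678. The miR172 genes had 0 unigenes, so the level of miR172 was not analysed here.

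Other flowering repressors did not share 1 direction. FLC, the vernalization-sensitive repressor, was lower in all 8 unigenes, by 0.44 to 0.88 on the log2 scale, while SVP was higher in all 4. TEM1 of the RAV family was higher in its 3 unigenes, by 0.91 to 1.12, and 1 unigene of RAV1 was lower by -0.77. Of the AP2-type factors outside the floral repressors, 2 of 23 were called lower, both AIL7, and 0 higher, with 2 lower without GA and 0 with GA. The FLC and SVP ranges were given for all their unigenes after the values were seen. For GA averaged over the lines, edgeR called 0 unigenes in each of these lists. At an unadjusted p under 0.05 it gave 7 higher and 4 lower among SPL factors, 4 higher among co-repressors, 3 higher in the miRNA machinery, 1 lower among TOE1 partners and 8 lower among FLC and SVP unigenes, and 0 in the rest. Of all unigenes tested, 7.2% were lower at that threshold. The share higher is not given here, so nothing is drawn from the higher counts. DESeq2 called 1 SPL unigene.

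The unigenes most like the members over the 8 libraries were sought by Pearson correlation of log2 scaled counts among 55461 tested unigenes with an Arabidopsis match. TBIU052092 of TOE1 was followed most closely by TBIU003161, a mitochondrial ribosomal protein of the L51/S25/CI-B8 family, at r = 0.998, by TBIU052091 of TOE1 at 0.994 and by TBIU035796, annotated as OEP16-3, at 0.992. TBIU009094 of TOE3 was followed by TBIU058774 and TBIU058776 (AT1G14800) at 0.992 and 0.991 and by TBIU022712, a gamma carbonic anhydrase, at 0.991. A correlation of at least 0.95 was reached by 289 unigenes for TOE1 and by 312 for TOE3. All points share the 8 libraries and the wide separation of the 2 lines.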

How the data were processed

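The authors trimmed the reads with SolexaQA, mapped them with Bowtie2 2.1.0 (at most 2 mismatches) to radish unigenes and deposited raw read counts per unigene. The submitters' processing notes also name TopHat, with no version. Strand was not stated. The authors also deposited normalized counts, a score rounded to whole numbers, and log2 fold changes of 4 comparisons; neither was used in a test.

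Raw counts were tested with edgeR 4.0.16 in R 4.3.3 (quasi-likelihood, limma 3.58.1). TMM factors ranged from 0.886 to 1.04. Low counts were removed with filterByExpr by group, 4 group means were fitted over all 8 libraries, and p-values were adjusted by Benjamini-Hochberg over 65934 unigenes or 26955 loci, with a threshold of 0.05. There were 7 comparisons. Scaled counts were counts divided by TMM-adjusted library size relative to its mean. Locus totals were scaled separately, so TOE3 values differ slightly between the scales. Fits were tested on simulated data. Alternatives were DESeq2 1.42.0, DESeq2-type size factors, no filter, a replicate block, only the groups compared, 1 subtracted from every count, the study's thresholds and leaving out each library. Library totals were 23757588 to 34165272 counts, and how far depth limits the precision was not tested.

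Text names every locus with a member. Per-library values are given for unigenes called in any comparison and for the most abundant unigene of each locus. Up to 4 called unigenes per list are named by smallest p. Some member unigenes of TOE2, SMZ and AP2 are not named in the text and are shown singly only in the plots of log2 fold changes. The members and lists were chosen with earlier results of these data known. Nothing says how the pools of 3 plants were grown, so p-values measure the spread between these pools. Lengths and sequences of unigenes were not used here.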

Additional observations from a re-analysis of the deposited data

How the results depend on the processing

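No called result changed sign under any alternative. Among unigene values that were not called, 3 of 182 changed sign for the lines averaged over GA and 22 of 273 for GA averaged over the lines. Under the study's thresholds the 7 member unigenes called between the lines became 2 in each of the 3 line comparisons, and the 2 loci became 1, because TOE3 and the smaller TOE1 unigenes lie under 500 scaled counts. DESeq2 called 1 member for GA averaged over the lines, where edgeR called 0. Leaving out each library in turn gave 5 to 7 unigenes without GA, 5 to 7 with GA and 7 to 10 averaged over GA, and 2 to 3, 1 to 2 and 2 to 3 loci. In these fits the lone library of a group was assumed to vary like the other groups. The GA comparisons and the difference of the GA effects stayed at 0. The count of 1 locus came without NH-JS2_GA replicate 2, when TOE3 missed the threshold (-0.68, adjusted p = 0.0683 in edgeR). The higher counts averaged over GA came without NH-JS2 replicate 1, through AP2, and their cause was not tested. With a replicate block the counts were 7, 7 and 7 unigenes and 2, 2 and 2 loci between the lines and 0 for GA. Replicate deviations correlated at -0.073 to 0.12 between groups. Such a correlation over all unigenes includes counting noise, so it cannot decide whether the replicate numbers pair the samples. Scaling by DESeq2's size factors changed no count. SMZ had the lowest counts of the members, 5 to 23 per unigene and library, and no test of depth was run.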
